A study of Rattus norvegicus with 9 samples.

Results

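Regulators of fibrinolysis and coagulation, 8 genes in all, were followed in rat brain after focal ischemia and reperfusion (I/R), with and without Danhong injection (DHI). They were Plat, Plau, Plaur, Serpine2, Serpini1, F2r, F3 and Thbd, found by gene name among the 19293 on the array. These genes were measured by 12 of the 30367 probes, of which 11 were bright enough to be tested.

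The values come from 9 one-color Agilent arrays of brain, 3 rats in each group, all male Sprague Dawley rats taken 14 days after surgery. The study names the tissue as the infarcted hemisphere for all groups, although Sham rats had no occlusion. In the Sham group the animals were sham-operated and received solvent. The I/R group had the right middle cerebral artery closed by a nylon suture for 2 h and then reopened. DHI rats had the same occlusion and were given Danhong injection, a Chinese herbal medicine, into the tail vein daily for 14 days. The age of the rats is not given in the sources used here.

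The plasminogen activators cut plasminogen into plasmin, the protease that dissolves fibrin. Plat codes for the tissue type (tPA, also the drug used for thrombolysis in stroke), Plau for the urokinase type (uPA) and Plaur for the urokinase receptor, while serpins such as neuroserpin (Serpini1) and protease nexin-1 (Serpine2) trap these proteases. On the coagulation side, tissue factor (F3) starts clotting, thrombin acts on cells through its receptor PAR1 (F2r), and thrombomodulin (Thbd) turns thrombin toward the anticoagulant protein C pathway.

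Each value below is a scaled log2 level, the log2 of the processed spot intensity minus the 75th percentile of its array, so that 0 is the brightness of the 75th percentile and 1 unit is a doubling. A gene is given by its brightest probe. Differences are log2 differences of group means from limma, fitted over all 9 arrays. A gene was called at the thresholds of the study (unadjusted p under 0.05 and fold change over 1.5), or more strictly with a Benjamini-Hochberg adjusted p under 0.05 over all 23747 probes tested in place of the unadjusted p.

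The probes decide which transcript is read, so the first 30 of the 60 bases are shown for the 5 genes that were called in at least 1 comparison, as the array files give them, with no base marked. Their positions are those of the array files on the rat build rn4, and whether they lie in exons or untranslated regions was not analysed here.
Plat, chr16:73711476-73711535, minus strand: atcctcaactcttggggcatatccctttgt
Plau, chr15:3680711-3680770, minus strand: gtctacacgagggtctcatacttcctgaac
Plaur, chr1:79712786-79712845, plus strand: ggagctggaggtggtgaccagaggctgtgc
Serpini1, chr2:166553401-166553460, plus strand: ggacgagtcatgcaccctgaaacaatgaac
F3, chr2:218382225-218382283, plus strand: ggacttttccaacagttgtacttttcgcaa

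The other 3 genes were read at chr9:79091862-79091921 (Serpine2), chr2:25987859-25987918 (F2r) and chr3:137158969-137159028 (Thbd), all on the minus strand. The accessions of 8 of the 8 probes matched a RefSeq gene of the same symbol.

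The 75th percentile of the intensity ranged from 1816 to 3464, 75.2% to 78.9% of the probes were well above background, and 0 probes were saturated. The 75th percentile was lowest on DHI 2 (1816) and DHI 3 (2120). The DHI arrays were on a slide of their own, apart from the slide that held the other 6 arrays, so slide and DHI cannot be told apart. The I/R versus Sham comparison lies within 1 slide. Among the DHI arrays, DHI 1 stood near the I/R arrays for most of these genes, and its weight in the DHI results is given beside them.

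In I/R versus Sham, 4 of the 8 genes rose and 1 fell. Plat, Plau, Plaur and F3 rose and also passed the adjusted p, while Serpini1 fell at the thresholds of the study. Plau was tested only because it was bright in I/R, so its place in these counts is a description. The share of all probes called was 43.1% at the thresholds of the study and 31.5% with the adjusted p, with 20.8% higher and 22.3% lower at the former and 16.4% higher and 15.1% lower at the latter. The median log2 difference of the 8 genes was 1.22, beside -0.10 for all probes tested. For 8 of the 8 genes the I/R levels of the brightest probe were separate from the Sham levels, as they were for 62.5% of all probes.

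**Figure D1:**
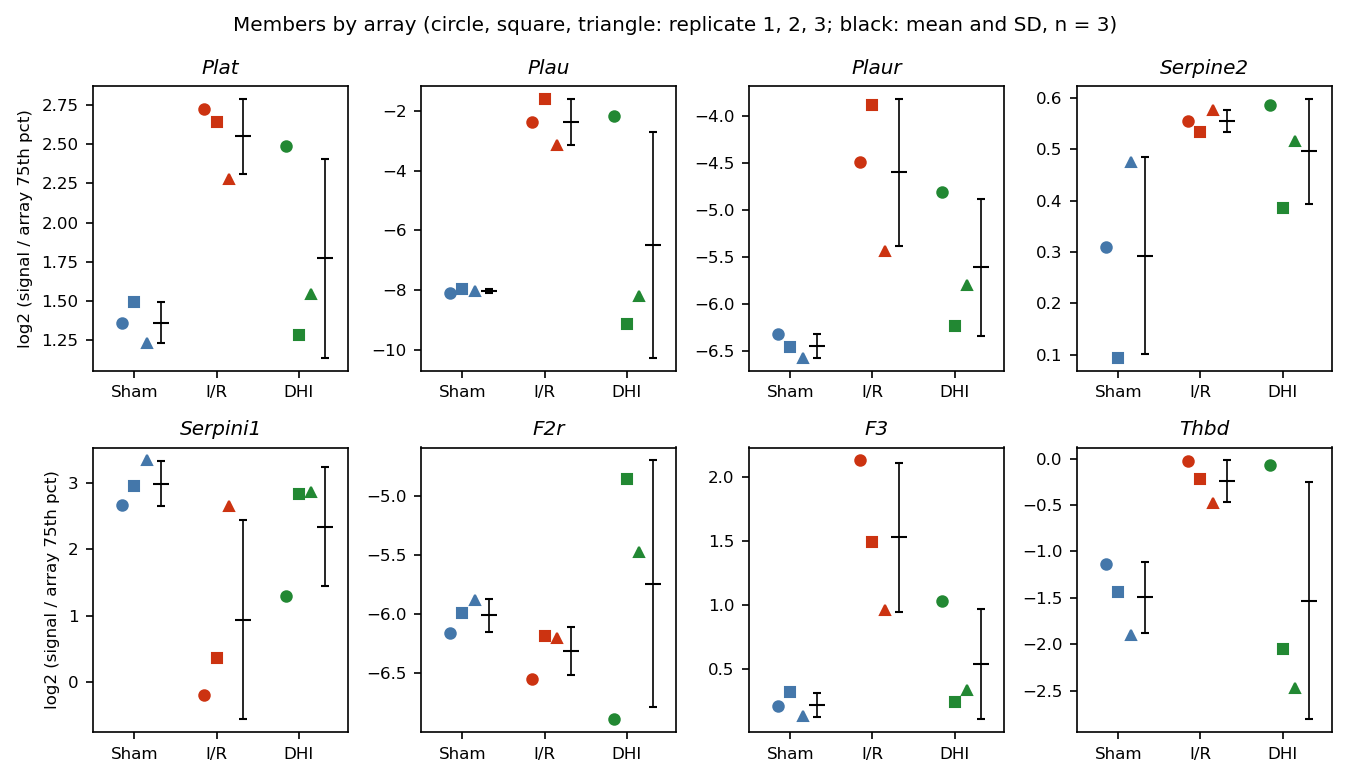
Scaled log2 level (vertical axis, log2 of signal over the 75th percentile of the array, a separate scale per panel) of the 8 genes on each array, by group. Circles, squares and triangles are replicates 1, 2 and 3, and the black line with bars is the mean with SD (n = 3). The DHI circle lies at the level of the I/R arrays for Plau (-2.15 against -3.13 to -1.59) while the other DHI arrays lie at -9.13 and -8.19.

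Among the plasminogen activators, the Plat level was 1.36, 1.496 and 1.23 on the Sham arrays, 2.73, 2.64 and 2.28 on the I/R arrays, and 2.49, 1.28 and 1.55 on the DHI arrays. Every I/R array was above every Sham array, and the DHI arrays were spread over both ranges. Plat rose 2.28-fold in I/R (log2 difference 1.19, SE 0.31, n = 3 and 3, limma adjusted p 0.040). It passed the unadjusted thresholds whichever single array was left out.

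Plau had the largest difference of the 8 genes. Its scaled log2 level was -8.09, -7.97 and -8.05 on the Sham arrays, -2.35, -1.59 and -3.13 on the I/R arrays, and -2.15, -9.13 and -8.19 on the DHI arrays. In processed intensity the Sham arrays read 9.44, 10.97 and 9.96, the I/R arrays 517, 1018 and 396, and the DHI arrays 627, 3.24 and 7.24. The probe was well above background on all 3 I/R arrays, on 1 Sham array and on DHI 1, so the low values are close to what the array can measure. The log2 difference in I/R versus Sham was 5.68 (SE 1.58, limma adjusted p 0.040). Its size hangs on the readings near background, and with normexp, another background correction, it was 3.05 (adjusted p 0.032 by limma). A probe that enters the test only through its bright group had to differ, so both values are descriptions.

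Plaur, the receptor that holds urokinase at the cell surface, moved the same way at a lower amplitude. Its scaled log2 level was -6.32, -6.45 and -6.57 in Sham, -4.49, -3.89 and -5.43 in I/R, and -4.81, -6.23 and -5.80 in DHI. The I/R arrays were all above the Sham arrays, and the DHI arrays were also all above them, with DHI 1 inside the I/R range. Plaur rose 3.59-fold in I/R (log2 difference 1.85, SE 0.46, limma adjusted p 0.040). The size depended on the background correction, since the log2 difference was 0.82 with normexp (unadjusted p 0.010 by limma). A second Plaur probe gave a log2 difference of 2.47 (SE 0.61, limma adjusted p 0.040). On that probe DHI 2 (-6.51) lay below Sham 2 (-6.46), so the DHI and Sham arrays overlapped.

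F3 gave 0.21, 0.32 and 0.13 in Sham, 2.13, 1.496 and 0.96 in I/R, and 1.03, 0.24 and 0.34 in DHI on the scaled log2 scale. Tissue factor transcripts were thus higher on each I/R array than on any Sham array, with I/R 3 the lowest of the I/R arrays. The rise was 2.48-fold (log2 difference 1.31, SE 0.32, limma adjusted p 0.040). Plau, Plaur and F3, like Plat, passed the unadjusted thresholds whichever array was left out. None of the 4 passed the adjusted p when any Sham array, I/R 1, I/R 2 or DHI 3 was left out, where their adjusted p ranged from 0.058 (without DHI 3) to 0.133 (without I/R 1).

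Serpini1 codes for neuroserpin, a tPA inhibitor made mainly by neurons, and it was the gene that fell. Its scaled log2 level was 2.66, 2.95 and 3.34 in Sham, -0.19, 0.37 and 2.65 in I/R, and 1.30, 2.84 and 2.87 in DHI. I/R 3 lay just under the lowest Sham array, whereas I/R 1 and I/R 2 were far below, so the I/R arrays were spread over nearly 3 log2 units (SD 1.503). The level was 4.11-fold lower in I/R (log2 difference -2.04, SE 0.74, limma unadjusted p 0.024, adjusted p 0.062). A second probe gave -2.12 (SE 0.73, limma adjusted p 0.054). On that probe I/R 3 (1.21) lay above Sham 1 (1.18), so the I/R and Sham arrays overlapped. The call was lost without Sham 2, Sham 3, I/R 1 or I/R 2, where the log2 difference was -2.05, -1.86, -1.47 and -1.75, and without I/R 3 it was -2.89 with an adjusted p of 0.018 by limma.

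Serpine2, F2r and Thbd did not pass in I/R versus Sham. Serpine2, which codes for protease nexin-1, an inhibitor of thrombin and of the plasminogen activators, read 0.31, 0.09 and 0.48 in Sham, 0.56, 0.53 and 0.58 in I/R, and 0.59, 0.39 and 0.52 in DHI. Its log2 difference in I/R versus Sham was 0.26 (95% interval -0.08 to 0.60), the narrowest interval of the 8 genes.

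Thbd, on the anticoagulant side, gave -1.14, -1.44 and -1.90 in Sham, -0.03, -0.22 and -0.47 in I/R, and -0.07, -2.05 and -2.47 in DHI. The I/R arrays were all above the Sham arrays, and DHI 2 and DHI 3 were below all of them. The log2 difference in I/R versus Sham was 1.25 (95% interval -0.05 to 2.55, limma unadjusted p 0.058), so it did not pass. It was called in 7 of 19 alternatives, among them a fit of only these 2 groups (unadjusted p 0.0018 by limma), normexp (0.048), the fit without DHI 1 (0.0011) and the fit without DHI 3 (0.038). A dimmer second probe, well above background on 1 of the 3 DHI arrays, gave 1.105 (SE 0.60).

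F2r read -6.16, -5.99 and -5.88 in Sham, -6.55, -6.19 and -6.20 in I/R, and -6.89, -4.86 and -5.47 in DHI. On this scale PAR1 transcripts were the only ones of the 8 with their highest levels on DHI 2 and DHI 3. In processed intensity DHI 2 read 62.6, while DHI 3 (47.8) stood close to I/R 3 (47.1). The log2 difference in I/R versus Sham was -0.30 (95% interval -1.35 to 0.74). A second F2r probe stayed close to background on all 9 arrays and was left untested.

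**Figure D2:**
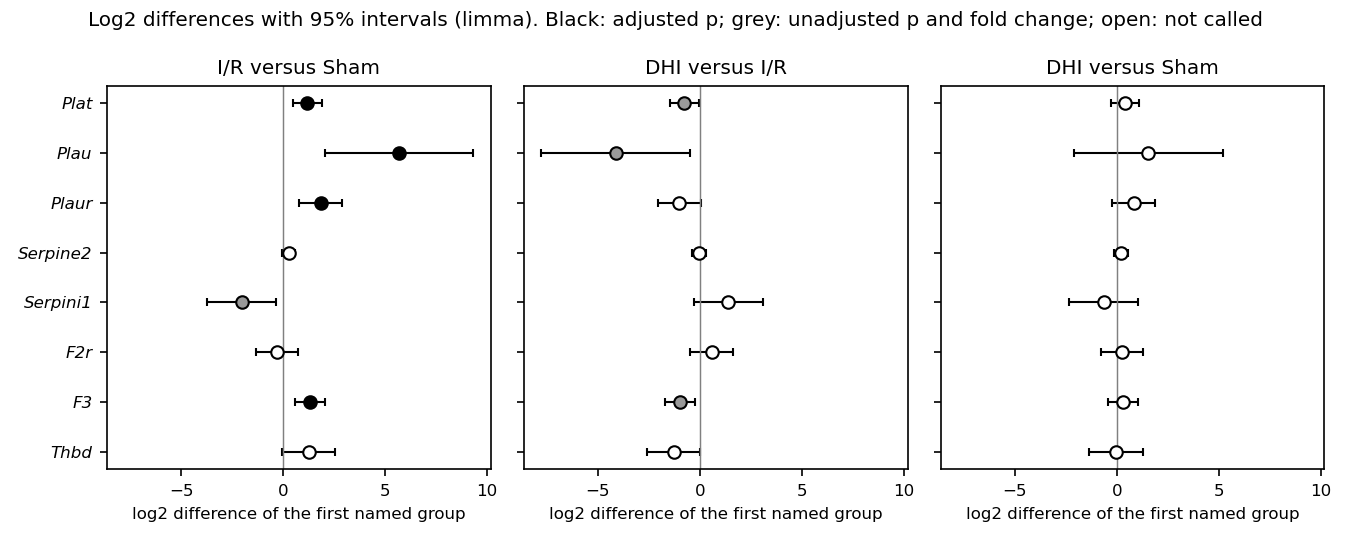
Log2 difference of group means with its 95% interval (limma, horizontal axis) for the 8 genes in the 3 comparisons. Black points passed the adjusted p, grey points only the unadjusted p and fold change, and open points neither. Plau has the largest difference and the widest interval (2.03 to 9.33 in I/R versus Sham), and 0 points are filled in DHI versus Sham.

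The DHI versus I/R comparison asks which of these changes were smaller in treated rats. Here 3 of the 8 genes were lower and 0 higher at the thresholds of the study. Plau, 1 of the 3, was tested only because it was bright in I/R, so its place in this count too is a description. The share of all probes called was 21.9%, with 11.5% higher and 10.5% lower. With the adjusted p, 0 of the 8 were called by limma (1 of all probes, 0.00421%), and the methods' t-test called 0 of the 8 by either rule. The median log2 difference of the 8 genes was -0.88, beside 0.10 for all probes tested. This comparison shares its I/R arrays with the one before.

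F3 had 1.99-fold less signal in DHI (log2 difference -0.99, SE 0.32, limma unadjusted p 0.015, adjusted p 0.196). Plat was 1.71-fold lower (-0.78, SE 0.31, unadjusted p 0.035 by limma). Plau differed by -4.14 (SE 1.58, unadjusted p 0.031 by limma), a size set by DHI 2 and DHI 3, where the probe was not well above background, and with normexp it differed by -1.64 (0.043). Both Plau values are descriptions, since the probe entered the test only through I/R. The levels of the DHI and I/R groups overlapped for 8 of the 8 genes, whereas 9.53% of all probes had separate groups.

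Serpini1, Plaur, Thbd, F2r and Serpine2 were not called in DHI versus I/R. Plaur differed by -1.01 (95% interval -2.06 to 0.04, limma unadjusted p 0.057), or -0.24 with normexp, and Thbd by -1.29 (-2.59 to 0.02, limma unadjusted p 0.052). Serpini1 differed by 1.39 (-0.31 to 3.09) and F2r by 0.57 (-0.47 to 1.62). Over the alternatives the F2r difference ranged from 0.11 to 1.15. The difference of Serpine2 was -0.06 with the interval from -0.40 to 0.28.

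These calls depended on single arrays to different degrees. With each of the 9 arrays left out in turn, F3 was called 8 times, Plau 5 times and Plat 4 times. Without DHI 1, 7 of the 8 genes were called (all but Serpine2) and 6 of them passed the adjusted p by limma, when 45.3% of all probes were called. In that fit the log2 difference in DHI versus I/R was -6.31 for Plau, -2.02 for Thbd, -1.41 for Plaur, -1.24 for F3, -1.14 for Plat, 1.15 for F2r and 1.91 for Serpini1. Without DHI 2 the number was 0 (3.95% of all probes called), and it was 1, F3, without I/R 1 (5.84%), I/R 2 (7.02%) or DHI 3 (4.79%). Without I/R 3 it was 5 (32.6%), and without Sham 1, where Plat had an unadjusted p of 0.051 by limma, it was 2 (16.5%). The share of all probes called moved with the number of these genes.

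**Figure D3:**
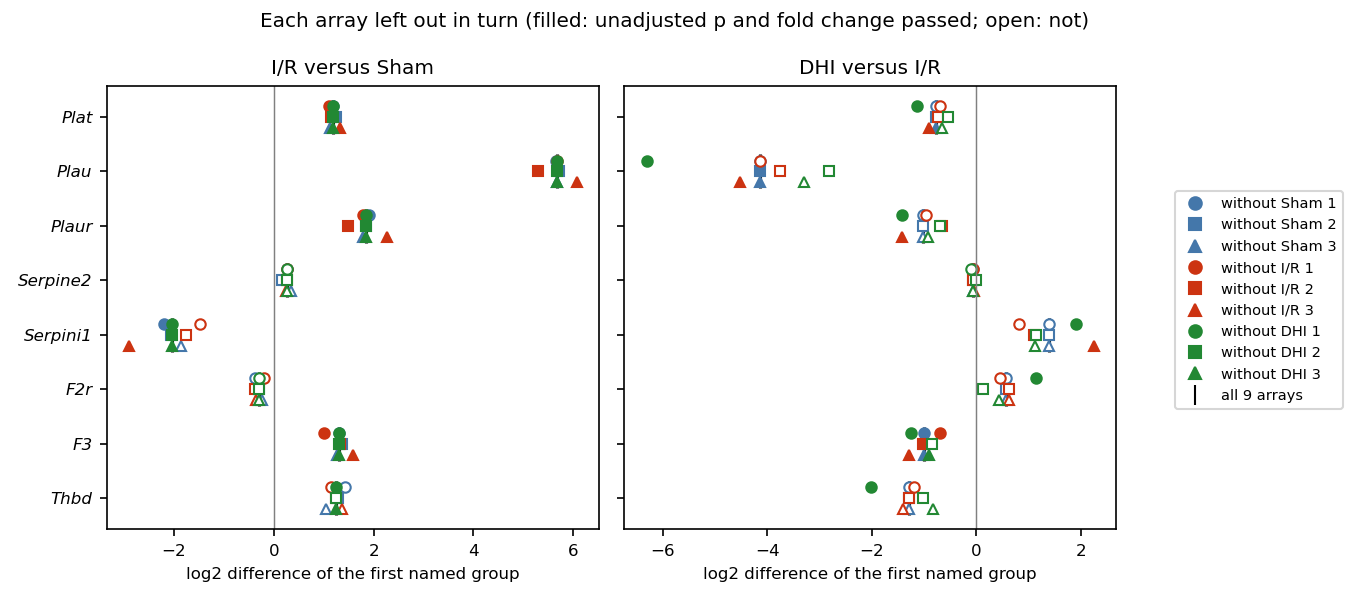
Log2 difference (horizontal axis) of each gene when 1 array at a time was left out, for I/R versus Sham and DHI versus I/R. Blue, red and green mark a left-out Sham, I/R or DHI array, circles, squares and triangles replicates 1, 2 and 3, filled symbols pass the unadjusted p and fold change, and the black line is the value from all 9 arrays. In DHI versus I/R the value without DHI 1 is the one farthest from 0 for Plat, Plau, F2r and Thbd (-6.31 for Plau).

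In DHI versus Sham, 0 of the 8 genes were called by limma, at the thresholds of the study or with the adjusted p, and 0 had an unadjusted p under 0.05. The methods' t-test also called 0. The shares of all probes called were 3.58% (2.52% higher and 1.06% lower) and 0%. The log2 differences were 0.41 for Plat, 1.54 for Plau (95% interval -2.11 to 5.19), 0.83 for Plaur (-0.21 to 1.88), 0.20 for Serpine2, -0.65 for Serpini1, 0.27 for F2r, 0.31 for F3 and -0.04 for Thbd (-1.34 to 1.27). These intervals do not show that the DHI and Sham levels were alike. By the brightest probe, Plaur was the 1 gene whose DHI and Sham arrays did not overlap, as 18.6% of all probes did not. On the second probes the reverse held, with Plaur overlapping and Serpini1 separate. Without DHI 1, F2r was 0.84 higher (unadjusted p 0.0066 by limma) and Thbd differed by -0.77 (0.022), and neither passed the adjusted p (0.724 for both). The other 6 genes then ranged from -0.63 (Plau) to 0.43 (Plaur).

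Cell type markers moved with these genes. The marker counts here and in the next paragraph are at the thresholds of the study. In I/R versus Sham 20.8% of all probes were higher and 22.3% lower at these thresholds. The 10 neuron markers were all lower in I/R, and their summed level (linear, with the 75th percentile of the array as 1) was 104 to 115 in Sham, 10.97 to 54.9 in I/R and 36.9, 116 and 90.2 on DHI 1 to DHI 3. Of the 10 microglia and macrophage markers 9 were higher in I/R, with summed levels of 10.9 to 13.2, 68.4 to 194, and 106.9, 14.9 and 17.6 in the same order. The 6 markers of reactive astrocytes were all higher, with 1.55 to 1.83, 16.9 to 23.5, and 21.1, 1.84 and 2.70. Of 8 astrocyte markers 3 were higher and 1 lower in I/R, with sums of 41.8 to 46.0, 60.2 to 75.9, and 63.1, 42.5 and 46.2. Of the 4 neutrophil markers tested 3 were higher, with sums over all 7 of 0.063 to 0.095, 0.125 to 0.251, and 0.155, 0.116 and 0.117, all low. Oligodendrocyte sums overlapped between Sham (143 to 167) and I/R (111 to 162), and were 154, 199 and 190 in DHI. DHI 1 thus had the lowest neuron sum and the highest microglia, astrocyte, reactive astrocyte and neutrophil sums of the DHI arrays, as it had the lowest Serpini1 and the highest Plat, Plau, Plaur, F3 and Thbd. Of these markers Osmr was not well above background on any Sham array, and Elane, a neutrophil marker, was not on any of the 9 arrays. The others were well above background on at least 1 array of every group. All 10 neuron markers were well above background on all 9 arrays, as the labelled tissue, brain, calls for. The part of the cell makeup in the results was not tested, and in whole tissue fewer cells of a type and less RNA per cell cannot be told apart.

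Endothelial cells carry thrombomodulin and release tPA. Of 9 endothelial markers 3 were higher in I/R, with sums of 4.82 to 5.45 in Sham, 5.39 to 8.37 in I/R and 5.10 to 6.20 in DHI. The red blood cell sum ranged from 4.62 to 38.6 in Sham, from 2.87 to 4.14 in I/R and from 9.39 to 49.99 in DHI, and the platelet sum from 6.93 to 10.01, from 3.31 to 5.31 and from 3.82 to 10.1. Every I/R array had lower red blood cell and platelet sums than any Sham array. Of 5 red blood cell markers tested, 4 were lower and 1 higher in I/R versus Sham (0 and 1 with the adjusted p). In DHI versus I/R 4 were higher and 1 lower. Of 4 platelet markers tested, 2 were lower and 1 higher in I/R versus Sham (1 and 1 with the adjusted p). In DHI versus I/R 2 were higher and 1 lower. For DHI versus I/R 11.5% of all probes were higher and 10.5% lower, and 0 of these markers passed the adjusted p. The sums of blood cell markers therefore differed between I/R and Sham arrays and between arrays of 1 group, Sham included. Their part in the results was not tested.

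**Figure D4:**
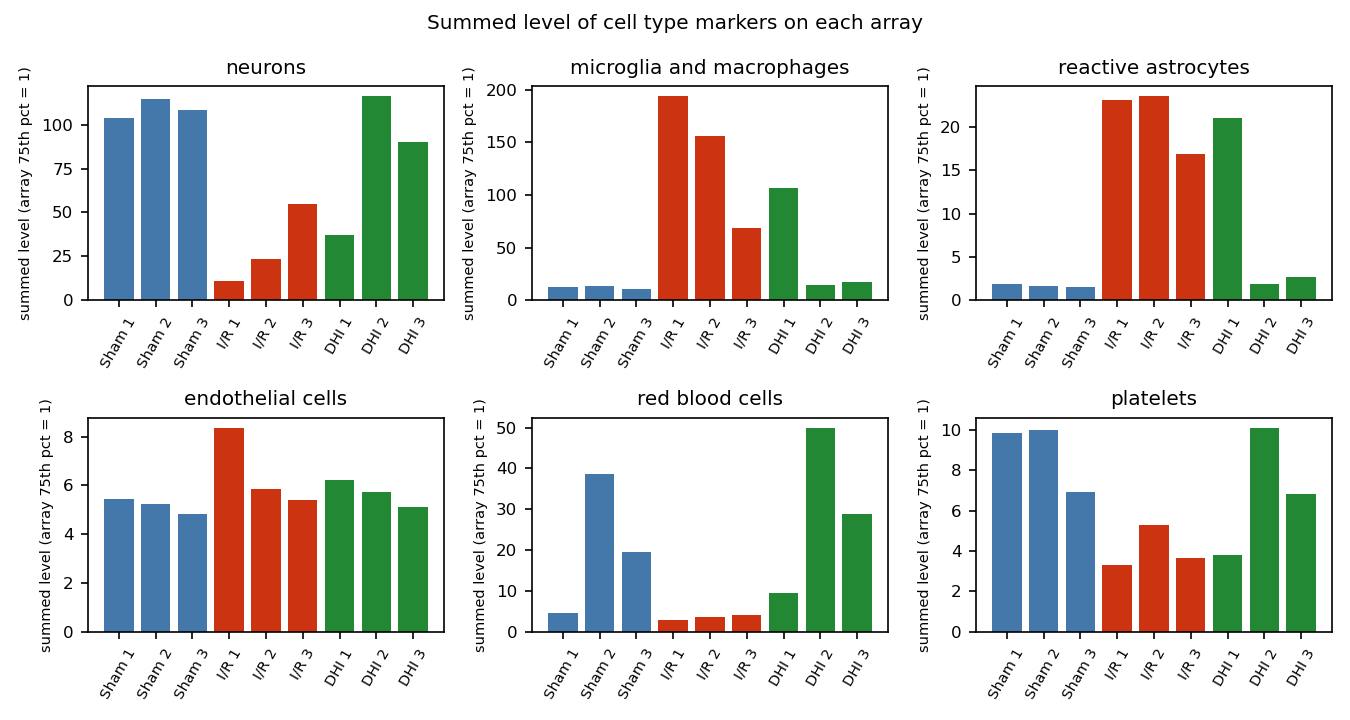
Summed level of the markers of 6 cell types on each array (linear scale, bars from 0, the 75th percentile of the array as 1), in blue for Sham, red for I/R and green for DHI. The neuron sum is lowest on I/R 1 (10.97) and the microglia sum is highest there (194), and DHI 1 has the lowest neuron sum of the DHI arrays (36.9).

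The other genes of the pathway were taken from lists of 43 genes by role, of which 41 were on the array and 27 bright enough to test. In I/R versus Sham 18 of the 27 were higher and 4 lower at the thresholds of the study, and 14 and 2 with the adjusted p, beside the 43.1% and 31.5% of all probes given above. The median log2 difference of the 27 was 1.25, and it was -0.72 in DHI versus I/R and 0.45 in DHI versus Sham. Tfpi2, Serpind1, F2 and F5 were among those that entered only through a group other than Sham, so the counts and the differences of these genes are descriptions. Between DHI and I/R, 2 were higher and 12 lower, beside 11.5% and 10.5% of all probes (21.9% together), with 0 at the adjusted p by limma and 1 called by the methods' t-test at the thresholds of the study. This count of 14 was 18 without DHI 1 (45.3% of all probes), 1 without DHI 2 (3.95%) and 1 without DHI 3 (4.79%), 4 without I/R 1 (5.84%) and 5 without I/R 2 (7.02%). In the DHI differences below, the value without DHI 1 follows the value from all arrays. Among the 14 not tested were the fibrinogen chains Fga, Fgb and Fgg and the liver-made factors F7, F9 and F11.

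**Figure D5:**
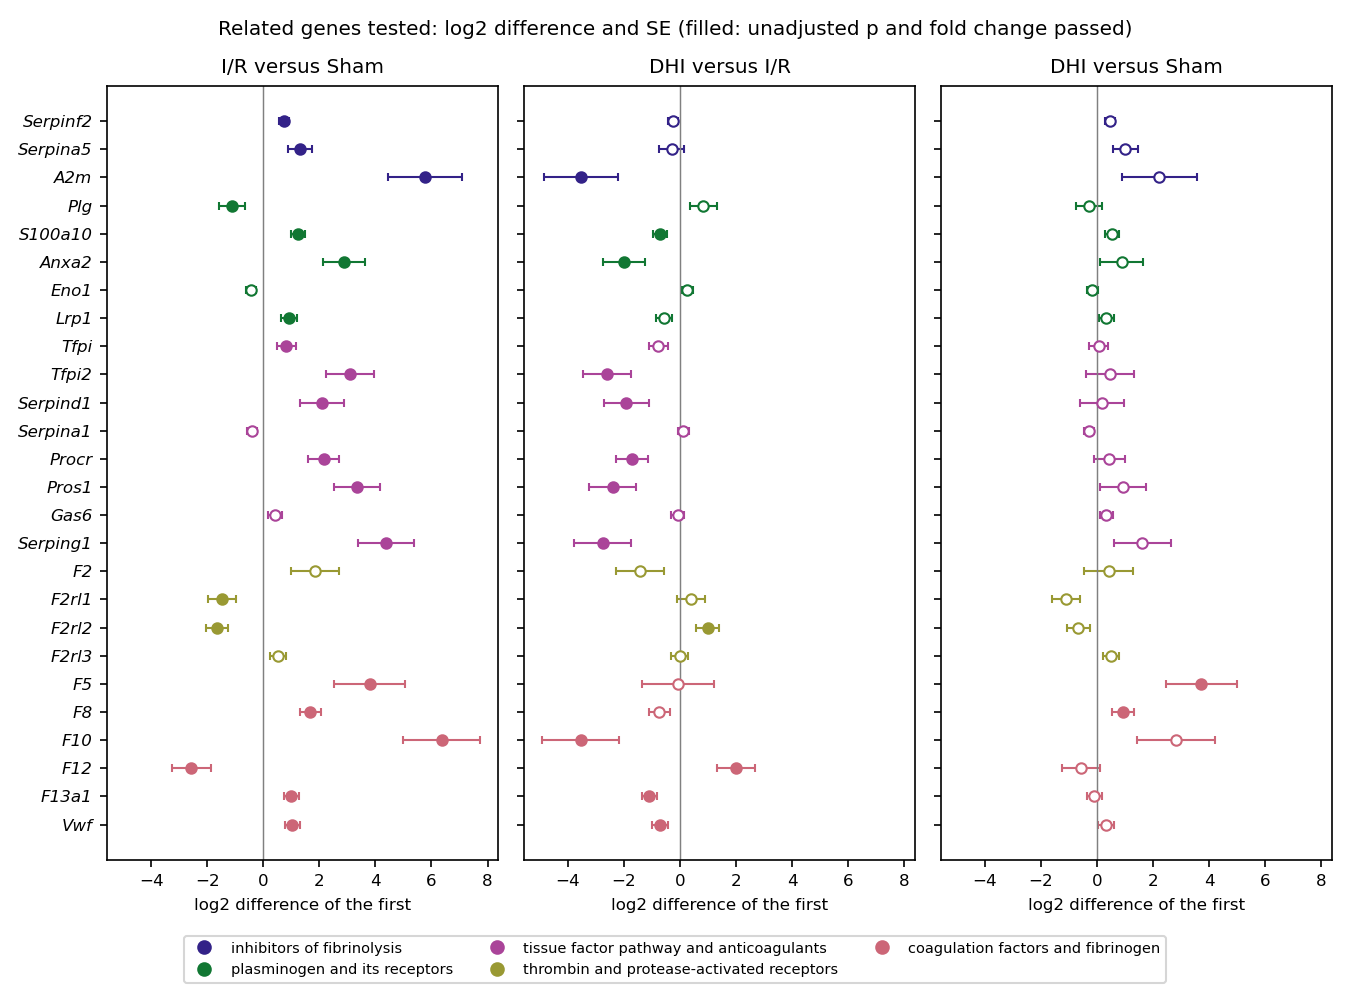
Log2 difference and SE (horizontal axis, limma) of the related genes tested, colored by role, with 1 of the 27 not shown. Filled points passed the unadjusted p and fold change. The points of A2m (5.76) and F10 (6.37) are the highest in I/R versus Sham, and F5 (3.73) and F8 (0.93) are the filled points in DHI versus Sham.

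Among the inhibitors of fibrinolysis, A2m, a broad trap of proteases, was higher in I/R by 5.76 (SE 1.32, limma adjusted p 0.040), at -0.94, -2.77 and -1.13 on the Sham arrays, 4.50, 4.17 and 3.79 on the I/R arrays and 3.94, -2.06 and -0.02 on the DHI arrays. Every I/R array and DHI 1 lay above every Sham array. Serpinf2, the plasmin inhibitor, was higher by 0.74 (SE 0.18), or 0.15 and not called with normexp. Against I/R, DHI had lower A2m by limma (-3.53, and -5.19 without DHI 1).

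Of plasminogen and its receptors, Anxa2 (2.88, SE 0.76) and S100a10 (1.25, SE 0.24), the subunits of a plasminogen receptor, were both higher in I/R. Lrp1, which clears complexes of proteases and serpins, was higher by 0.91 (SE 0.28). Plg itself differed by -1.11 (SE 0.48, limma unadjusted p 0.049), and Eno1 was not called. Anxa2 and S100a10 were lower in DHI versus I/R, at -2.001 and -0.71 (-3.02 and -0.98 without DHI 1).

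Of the 8 tested inhibitors of the tissue factor pathway and anticoagulants, 6 were higher in I/R and 0 lower (4 and 0 with the adjusted p). Beside these stand 20.8% and 22.3% of all probes (16.4% and 15.1% with the adjusted p). Tfpi2 and Serpind1 entered the test only through I/R, so their place in this count and the Tfpi2 differences below are descriptions. Serping1, the C1 inhibitor, was higher by 4.38 (SE 1.01), Pros1, the cofactor of activated protein C, by 3.34 (SE 0.83), Tfpi2 by 3.08 (SE 0.85) and Procr, the protein C receptor, by 2.16 (SE 0.56). On the DHI arrays Pros1 read -3.11, -6.77 and -6.03, against -6.29 to -6.13 in Sham and -3.44 to -2.36 in I/R. These 4 genes were lower in DHI versus I/R by limma, at -2.77, -2.41, -2.62 and -1.71 (-4.11, -3.50, -3.77 and -2.38 without DHI 1). With normexp, Pros1, Tfpi2 and Procr differed by 2.10, 0.93 and 1.33 in I/R versus Sham and by -1.19, -0.35 and -0.78 in DHI versus I/R, where Tfpi2 was not called.

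Of the 4 genes for thrombin and the other protease-activated receptors, 2 were lower in I/R (1 with the adjusted p), beside 22.3% of all probes (15.1%). F2rl2 (PAR3) was lower in I/R by limma at -1.65 (SE 0.41) and F2rl1 (PAR2) at -1.48 (SE 0.50, adjusted p 0.053). F2rl3 and thrombin itself, F2, were not called. F2rl2 was higher in DHI versus I/R, by 0.98 (SE 0.41, and 1.42 without DHI 1). With normexp F2rl2 differed by -0.50 in I/R versus Sham and by 0.57 in DHI versus I/R, not called in either, and F2rl1 by -0.75 in I/R versus Sham.

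Among the coagulation factors, F10 was higher in I/R by 6.37 (SE 1.38), from -6.50 to -5.74 in Sham to 1.13, 0.67 and -0.99 on the I/R arrays, and read 0.22, -5.90 and -4.16 on the DHI arrays (-3.55 in DHI versus I/R, and -5.30 without DHI 1). With normexp the F10 differences were 4.96 and -2.74. F12, which starts the contact pathway, was lower at -2.56 (SE 0.69), and it was higher in DHI versus I/R by 2.00 (SE 0.69, and 2.77 without DHI 1). F8 (1.67), Vwf (1.04), the carrier of factor VIII, and F13a1 (1.00), which crosslinks fibrin, were higher in I/R, and in DHI versus I/R F13a1 was lower at -1.10 (SE 0.27) and Vwf at -0.72 (-1.41 and -0.86 without DHI 1). With normexp F13a1 differed by 0.49 and -0.23 in these comparisons and was not called in either.

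F5, the cofactor of activated factor X, was called in I/R versus Sham (3.79, SE 1.28) and again in DHI versus Sham. It was well above background on 2 of the 3 Sham arrays and entered the test through I/R and DHI. Its differences from Sham are therefore descriptions. Its level was -8.26, -7.07 and -7.12 in Sham, -3.95, -4.05 and -3.07 in I/R and -0.72, -6.72 and -3.83 in DHI. All DHI arrays were above all Sham arrays, and DHI 1 was the highest of the 9 arrays. F5 and F8 were the 2 of 27 called in DHI versus Sham, both higher, by 3.73 (SE 1.28, limma unadjusted p 0.020) and 0.93 (SE 0.38, 0.039), with an adjusted p of 0.709 for both, when 3.58% of all probes were called. Without DHI 1 the difference was 2.21 for F5 (unadjusted p 0.031 by limma) and 0.58 for F8 (0.119), so F8 was lost. Tfpi2 and Serpind1 were then called lower, at -0.69 and -0.87. Neither was well above background on DHI 2 or DHI 3. On the Sham arrays Serpind1 was not either, and Tfpi2 was on Sham 3 alone. Both entered the test only through I/R, so these differences lie near background and are descriptions. With normexp F5 differed by 1.72 in I/R versus Sham and by 2.30 in DHI versus Sham. The difference of F5 in DHI versus I/R was -0.06 with a 95% interval of -3.02 to 2.89, and -1.58 without DHI 1.

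The genes whose levels followed each member most closely over the 9 arrays were found among 13670 genes, by Pearson's r of the scaled log2 levels. For Plau they were Pxdc1 (r = 0.997) and Stom (0.996), for Plat Gpr34 (0.996) and Ifi35 (0.996), for Plaur Foxm1 (0.992) and Cdt1 (0.991), and for F3 P2ry14 (0.991) and Tmod4 (0.990). For Serpini1 they were Kctd13 (0.993) and Mapk8ip2 (0.992), and for Thbd Wisp2 (0.991). Serpine2 (Mob3b, 0.962) and F2r (Ssna1, 0.965, and Mtss1l, 0.964) had less close matches. The 9 arrays fall into separate levels, so these values describe likeness of pattern and carry no test.

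Promoter sequence is shown for Plau and Plaur, which rose together as a protease and its receptor, and for F2r, which did not pass. The 250 bases before the start of each gene come from RefSeq on the build GRCr8, and 5 of the 8 genes had an entry (not Plat, F3 or Thbd). They were searched on both strands for the letters TGANTCA, the site of the factor AP-1, and GGGCGG, the core of a site of Sp1, and matches are in capitals. The motifs do not overlap each other in their letters. AP-1 letters occur in 6.34% and Sp1 letters in 30.5% of the 33465 promoters of this length.
Plau, chr15:3511988-3512237, minus strand: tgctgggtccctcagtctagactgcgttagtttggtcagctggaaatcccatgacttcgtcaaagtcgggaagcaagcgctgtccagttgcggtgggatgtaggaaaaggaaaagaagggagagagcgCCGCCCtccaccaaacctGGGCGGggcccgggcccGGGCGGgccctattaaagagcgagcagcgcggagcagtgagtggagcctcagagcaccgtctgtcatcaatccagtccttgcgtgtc
Plaur, chr1:89181113-89181362, plus strand: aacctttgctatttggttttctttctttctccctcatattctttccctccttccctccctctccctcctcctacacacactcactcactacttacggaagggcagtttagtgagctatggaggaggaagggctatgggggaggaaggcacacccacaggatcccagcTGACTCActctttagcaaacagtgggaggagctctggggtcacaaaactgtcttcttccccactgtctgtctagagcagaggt
F2r, chr2:28620580-28620829, minus strand: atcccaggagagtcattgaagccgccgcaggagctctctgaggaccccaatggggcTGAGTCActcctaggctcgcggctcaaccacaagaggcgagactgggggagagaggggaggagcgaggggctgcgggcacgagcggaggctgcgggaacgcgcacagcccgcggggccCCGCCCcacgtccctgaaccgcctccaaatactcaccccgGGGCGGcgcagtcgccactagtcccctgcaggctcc

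Plaur held 1 AP-1 match, 83 bases before the start, and 0 Sp1 matches. Plau held 0 AP-1 and 3 Sp1 matches. F2r held 1 AP-1 match, 194 bases before the start, and 2 Sp1 matches, so the letters occurred in a gene that passed and in one that did not. Serpine2 had 6 Sp1 matches and Serpini1 had none of either. A match is a run of letters and was not tested as a binding site.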

How the data were processed

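Total RNA of rat brain was measured on 9 one-color Agilent arrays, 3 each for Sham, I/R and DHI, each a separate rat by the study's account. The authors deposited Agilent Feature Extraction files (version 10.7.1.1), which give a linear processed intensity for each spot, after background correction but not brought to a common scale. A table of log2 values for the whole series was deposited too. Its distribution is the same on all arrays, and it was used as an alternative. The intensity of control spots and of the 392 to 725 outlier spots per array was left out.

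Spots of a probe were averaged as log2 intensity, and the 75th percentile of the array was subtracted. A probe was well above background on an array if at least 0.5 of its spots were, and it was tested if this held on all 3 arrays of at least 1 group (23747 of 30367 probes). When an array was left out, this filter was recomputed on the remaining arrays. One limma model (limma 3.58.1 and data.table (version 1.17.8) in R 4.3.3, lmFit and eBayes, 6 residual degrees of freedom) gave 3 contrasts, with Benjamini-Hochberg adjustment over all probes tested. The study thresholds (unadjusted p under 0.05 and fold change over 1.5) came with the methods' t-test, which was run as an alternative. The steps were tested on simulated data.

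The 8 genes, the lists of related genes and markers, and the tests were chosen with earlier results of these data known. Named genes are the 8 genes, each related gene that passed the adjusted p in any comparison, the 2 of each related list with the largest called change per comparison, and the 2 genes most like each of the 8. Results for some of these genes are not reported here. Others named were singled out after their values were seen. Arrays limit precision by their number, n = 3 per group. The replicate numbers were taken from the labels. Columns of values not used numbered 0. Alternatives changed the scaling (quantile or none), the background (normexp, offset 50), the source (the deposited table), the filter (none, or brightness on all 9 arrays), the arrays fitted (only the groups compared, or 1 array left out), the model (array weights, or a replicate block), the test (the methods' t-test) or the probe of a gene. Promoters and gene names came from RefSeq (GRCr8).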

Additional observations from a re-analysis of the deposited data

How the results depend on the processing

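In I/R versus Sham, the number of the 8 genes with an adjusted p fell from 4 to 0 with no scaling between arrays, where 1 of all probes passed. For DHI versus I/R, the 3 genes called at the study thresholds became 5 with no scaling, 1 in a fit of only the 2 groups compared, 7 with array weights and 0 with the methods' t-test, and the 0 with an adjusted p became 7 with array weights. The 14 related genes became 8 in the 2-group fit and 1 with the t-test. In DHI versus Sham, 0 of the 8 genes became 2 with array weights (Plaur and Thbd), and the 2 related genes became 4 with normexp background correction, 1 when probes had to be bright on all 9 arrays, 10 with array weights and 0 with the t-test.

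The correlations of same-numbered deviations ranged from -0.34 to 0.48, which does not decide whether the replicate numbers pair the arrays. With the replicate number as a block, 5 of the 8 genes were called in DHI versus I/R (Serpini1 and Thbd added) and 4 related genes in DHI versus Sham, and 16 related genes in DHI versus I/R.

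When each array was left out in turn, the counts ranged, in I/R versus Sham, from 4 to 6 of the 8 genes (0 to 6 with the adjusted p) and from 17 to 22 related genes. For DHI versus I/R they ranged from 0 to 7 (0 to 6 with the adjusted p) and from 1 to 18, and in DHI versus Sham from 0 to 2 (0 to 0 with the adjusted p) and from 1 to 9. In DHI versus I/R the upper ends were without DHI 1 and the 0 at the study thresholds was without DHI 2, while the 1 related gene was without DHI 2 and again without DHI 3, and 0 passed the adjusted p without any array other than DHI 1. The 9 related genes in DHI versus Sham were without DHI 2.

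In I/R versus Sham, Thbd was the 6th gene called with normexp, in the 2-group fit, with array weights, with the replicate block, and without DHI 1 or DHI 3. Normexp lowered the log2 difference of Plau from 5.68 to 3.05 and of Plaur from 1.85 to 0.82 in I/R versus Sham, and moved them from -4.14 to -1.64 and from -1.01 to -0.24 in DHI versus I/R.

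Among log2 differences the sign changed in DHI versus Sham alone, where 0 of the 8 genes were called. The log2 difference was -0.061 for Serpine2 with no scaling, -0.18 for Plau with array weights and -0.63 without DHI 1, 0.14, 0.22 and 0.43 for Thbd without Sham 1, DHI 2 and DHI 3, and -0.17 for F2r without DHI 2. Over single arrays left out, Plau ranged from -0.63 to 2.86, Thbd from -0.77 to 0.43 and F2r from -0.17 to 0.84. Counts of all probes depended on scaling as well. For DHI versus I/R the share of called probes that were higher was 52.2%, and 4.801% with no scaling, which moved the median over all probes from 0.10 to -0.36. In I/R versus Sham the share was 48.3% and 60.9% (median -0.10 and 0.10), and in DHI versus Sham 70.4% and 5.21%, 37.5% with quantile normalization and 87.3% with normexp. With no scaling, each difference includes the gap between the 75th percentiles of the arrays compared, which were lowest on DHI 2 (1816) and DHI 3 (2120). The cause of the shifts with quantile normalization and normexp was not tested. Called probes numbered 2149 in the 2-group fit, 11904 with array weights and 469 with the t-test in DHI versus I/R, against 5211. For DHI versus Sham they numbered 1688 with no scaling, 1407 without the filter, 3484 with array weights, 1280 with the replicate block and 448 with the t-test, against 849. With the adjusted p, I/R versus Sham had 7471 probes, 1 with no scaling and 13013 with array weights.

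Slide as a block could not be fitted for DHI, since its arrays are on a slide of their own. Plau has no value where probes had to be well above background on all 9 arrays. Signal near background limits Plau and the second F2r and Thbd probes. The brightest Plaur and F2r probes were well above background on all 9 arrays but also dim, at 24.2 to 208 and 23.5 to 62.6 in processed intensity.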
